A study of Mus musculus with 23 samples.

Results

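Genes that mark endothelial cells (ECs) were followed in whole lungs from which neutrophils had been depleted. The members are 39 genes, matched by symbol in the whole-lung table of 55335 genes: 26 of general endothelium, 8 of capillaries, 2 of veins and 3 of lymphatic vessels. All 39 were found. The whole-lung libraries came from C57BL/6J mice that the study injected i.p. with an anti-Ly6G antibody (the neutrophil-depleted group, labelled pmn deletion) or with an isotype antibody (the isotype control group, labelled wt) with the last injection a day before the lungs were taken, and with 3 libraries in each group. No genetic change separated the groups, and the labels state neither the age of these mice nor whether each library came from 1 mouse, so p values measure the spread between these libraries. The series holds 23 samples in all, and 9 libraries of neutrophils sorted from lung, peripheral blood (PB) and bone marrow (BM) of WT mice served here only to give the level of the same genes in neutrophils. Values are FPKM, fragments mapped to a gene relative to its length and to all mapped fragments of the library, and can therefore be set side by side between genes.

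ECs line every blood and lymphatic vessel. In the lung they are among the most abundant cells, since the alveolar wall is filled with capillaries. These cells are held together by VE-cadherin and claudin 5, receive growth signals through VEGF receptors and through the TIE receptors for angiopoietins, and keep their identity through ETS, SOX and GATA transcription factors. The alveolar capillary bed has 2 kinds of EC: aerocytes, which carry carbonic anhydrase 4 and the endothelin receptor EDNRB and face the gas-exchange surface, and general capillary cells, which carry the apelin receptor, GPIHBP1 and PLVAP and act as a reserve for repair. The apelin ligand itself is made by aerocytes in the mouse lung.

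The depletion left its mark on neutrophil transcripts. *S100a8*, which encodes a subunit of the calprotectin of neutrophil granules and cytosol, stood at 41.2, 35.0 and 35.1 FPKM in the control libraries and at 20.2, 14.3 and 6.78 FPKM in the depleted ones. *S100a9*, the other subunit and the most abundant of the neutrophil markers tested, stood at 138, 107 and 108 FPKM in control and at 57.0, 52.0 and 18.2 FPKM in depleted libraries. *Ly6g*, the antigen of the depleting antibody, was near the floor of detection, at 0.0683, 0.577 and 0.0710 FPKM in control and 0.0748, 0 and 0.118 FPKM in depleted lungs, and does not check the labels. Of 16 tested neutrophil markers, 11 were lower in every depleted library than in any control library, beside 11.8% of all genes tested, and none passed the test below. *Lcn2*, the next most abundant marker and also made by epithelial cells, was instead at 30.1, 37.9 and 48.6 FPKM in control and at 48.4, 60.4 and 45.0 FPKM in depleted lungs (limma log2 fold change 0.41, adjusted p = 0.473). Their summed level was 299 to 336 FPKM in control and 107 to 208 FPKM in depleted lungs. FPKM summed to 345075 to 391908 per library, 13564 to 14045 genes reached 1 FPKM, and the relative depth, read from the lowest values, ranged over 1.27-fold, so that no library was much shallower than the rest.

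No endothelial gene passed the test for a change after depletion. Among the 13990 genes with at least 1 FPKM in at least 3 libraries, 38 members were tested by limma on log2(FPKM + 1), with a gene called where the Benjamini-Hochberg adjusted p was below 0.05 and the absolute log2 fold change above 0.5. None of the 38 members was called, 0.0% of all genes tested were called higher, and 0.00715% (1 gene) were called lower. That gene, *Aqp5*, encodes a water channel of alveolar epithelium and is no endothelial gene: its level fell from 71.5, 84.7 and 73.4 FPKM in control to 23.2, 26.9 and 28.6 FPKM in depleted lungs (limma log2 fold change −1.51, SE 0.10, adjusted p = 0.0211). The lowest adjusted p among the members was 0.166. The study tested counts and reported many genes affected by the depletion, with regulation of ECs among their pathways. The number of calls here cannot be set against that of the study. By flow cytometry, the study also reported that ECs proliferated less after neutrophils were depleted in young mice, which was not measured here. At an unadjusted p below 0.05, 5 members were higher and 1 was lower in depleted lungs (13.2% and 2.63% of the members tested), beside 3.53% and 7.69% of all genes tested.

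The fold changes of the endothelial genes were small and lay on both sides of 0. On the scale of log2(FPKM + 1), depleted over control, 20 members were above 0 and 18 below, with a median of 0.01 beside −0.04 over all genes tested. The median absolute log2 fold change was 0.10 for the members and 0.10 for all genes tested. For 25 members the absolute value was under 0.2, and for 5 members (*Gata2*, *Prx*, *Lyve1*, *Aplnr* and *Angpt2*) it was above 0.5. The 95% interval lay within 0.5 on either side of 0 for 22 members and within 1 for 35, so a 2-fold difference was outside the interval for these 35. The SE of a member had a median of 0.13, beside 0.11 over all genes tested.

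The endothelial genes spanned a wide range of levels. Averaged over the 6 libraries, 9 were at 100 FPKM or more, 22 between 10 and 100, 7 between 1 and 10, and 1 below 1 FPKM. The 9 most abundant were *Plvap*, *Thbd*, *Tmem100*, *Cdh5*, *Cldn5*, *Calcrl*, *Acvrl1*, *Lyve1* and *Pecam1*. The levels of *Cdh5* and *Cldn5*, 2 neighbours in this order, were alike at 191 FPKM each.

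**Figure D1:**
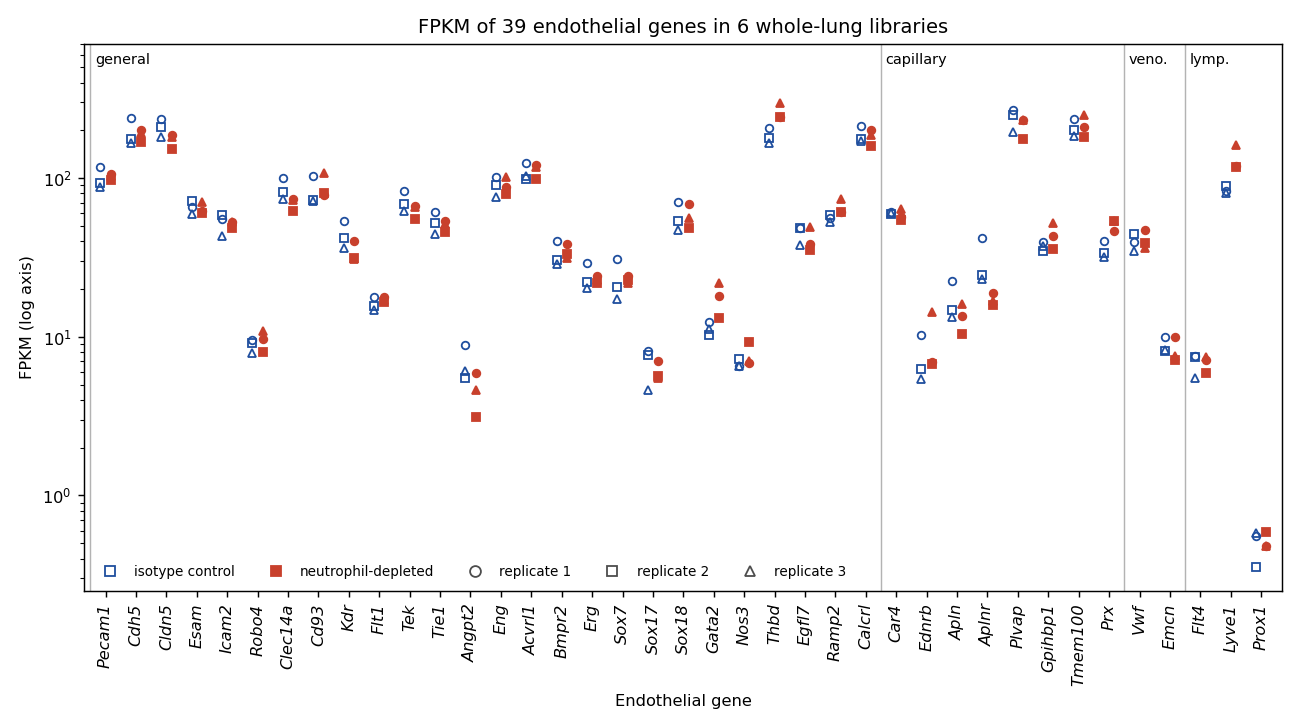
FPKM (log axis) of the 39 endothelial genes, ordered by vessel type, in 3 isotype control libraries (open blue symbols) and 3 neutrophil-depleted libraries (filled red symbols), with the symbol shape giving the replicate. In 33 of 39 genes the groups overlap. *Prx*, *Thbd*, *Gata2*, *Ramp2* and *Lyve1* have all 3 depleted libraries above the controls, and *Aplnr* has them below.

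In 6 members the groups did not overlap. *Prx*, *Lyve1*, *Thbd*, *Gata2* and *Ramp2* were higher in every depleted library than in any control library (13.2% of the members tested), beside 5.59% of all genes tested. Only *Aplnr* among the members was lower in every depleted library (2.63% of the members tested), beside 11.8% of all genes tested. These 6 are described with their roles below, and none of their adjusted p values was below 0.05.

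The junction and adhesion genes had log2 fold changes from −0.28 to 0.11, with *Clec14a* and *Cldn5* the lowest. *Cdh5* (VE-cadherin, the adhesion protein of endothelial junctions, chr8:104101625-104144511 in GRCm38) was measured at 239, 178 and 167 FPKM in control and at 202, 170 and 192 FPKM in depleted lungs. The groups overlapped, and the limma log2 fold change was −0.04 (SE 0.14, 95% interval −0.38 to 0.30). *Pecam1* (CD31, used to sort and stain ECs) lay between 87.6 and 117 FPKM in control and between 97.4 and 106 FPKM in depleted lungs, with a log2 fold change of 0.05. *Cldn5*, the tight-junction claudin of ECs, lay between 180 and 237 FPKM in control and between 152 and 187 FPKM in depleted lungs (log2 fold change −0.27, 95% interval −0.56 to 0.03). The log2 fold change was −0.17 without control replicate 1, −0.18 without depleted replicate 2 and −0.37 without control replicate 3. *Clec14a*, a surface lectin of vessels, had the lowest fold change of this group, −0.28 (95% interval −0.59 to 0.02), with 74.0 to 101 FPKM in control and 61.6 to 74.0 FPKM in depleted lungs. Its log2 fold change was −0.16 without control replicate 1 and −0.38 without control replicate 3. Of the other members, *Esam* and *Icam2*, adhesion molecules of junctions and the luminal surface, had log2 fold changes of −0.02 and −0.01. *Robo4*, a guidance receptor of vessels, and *Cd93*, a surface glycoprotein of ECs and myeloid cells, had values of 0.09 and 0.11. Among the 8 genes of this role, 3 were above and 5 below 0, none was called, and their summed level was 797 ± 120 FPKM in control and 747 ± 59.2 FPKM in depleted lungs (SD, n = 3).

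The VEGF receptors did not change past the test either. *Kdr* (VEGFR2, the main signalling receptor for VEGFA on blood ECs) stood at 53.6, 41.8 and 36.2 FPKM in control and at 39.9, 31.5 and 30.9 FPKM in depleted lungs. A pair of the depleted libraries lay under every control, and the first depleted library lay between the controls. Its limma log2 fold change was −0.34 (SE 0.16, 95% interval −0.72 to 0.03, adjusted p = 0.485). It was −0.19 without control replicate 1, the library with the highest value, and −0.47 without control replicate 3. *Flt1* (VEGFR1, which binds VEGFA tightly and limits its signal) was between 14.7 and 17.8 FPKM in control and between 16.5 and 17.9 FPKM in depleted lungs, with a log2 fold change of 0.09 (95% interval −0.12 to 0.29). *Flt4*, the receptor for VEGFC, is given with the lymphatic genes. The ligand *Vegfa* itself was measured at 150, 153 and 152 FPKM in control and at 129, 129 and 136 FPKM in depleted lungs (limma log2 fold change −0.21, SE 0.06, adjusted p = 0.295). All 3 depleted libraries were below the controls for *Vegfa*, and the difference did not pass the test over all genes.

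RefSeq (GRCm38.p6) gave a promoter window of 250 bases before to 50 after a transcript start for 20 of the 39 members, 26 windows in all. Those of the VEGF receptors are shown because their fold changes had opposite signs, and that of *Prx* because it had the lowest adjusted p of the members. The *Kdr* window is chr5:75978406-75978705, the *Flt1* window chr5:147725962-147726261, both on the minus strand, and the *Prx* window chr7:27499074-27499373 on the plus strand. Each is written 5′ to 3′ on the strand of its gene, in lower case. Capitals mark the letters AGGAAG, a form of the ETS site, or the reverse complement CTTCCT.
Kdr: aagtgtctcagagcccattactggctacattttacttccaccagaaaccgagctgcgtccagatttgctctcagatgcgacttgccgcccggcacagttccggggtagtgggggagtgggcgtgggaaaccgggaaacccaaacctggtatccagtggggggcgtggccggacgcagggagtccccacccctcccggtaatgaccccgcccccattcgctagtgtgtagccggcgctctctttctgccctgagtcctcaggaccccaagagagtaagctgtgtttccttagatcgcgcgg
Flt1: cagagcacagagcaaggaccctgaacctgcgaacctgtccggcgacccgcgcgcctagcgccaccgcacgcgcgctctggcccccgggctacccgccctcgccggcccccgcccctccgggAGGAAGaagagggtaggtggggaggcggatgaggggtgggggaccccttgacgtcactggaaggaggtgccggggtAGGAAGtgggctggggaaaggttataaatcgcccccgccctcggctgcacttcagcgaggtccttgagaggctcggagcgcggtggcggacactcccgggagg
Prx: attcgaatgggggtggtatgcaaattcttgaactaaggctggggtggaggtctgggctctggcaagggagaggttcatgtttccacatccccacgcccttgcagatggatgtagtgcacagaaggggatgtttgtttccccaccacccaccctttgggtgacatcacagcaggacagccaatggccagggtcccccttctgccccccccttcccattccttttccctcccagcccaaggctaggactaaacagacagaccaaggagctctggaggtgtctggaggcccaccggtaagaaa
The *Flt1* window held 2 matches to these letters and the *Kdr* and *Prx* windows held 0. Other or shorter forms of the ETS site were not searched. Searched on both strands, AGGAAG stood in 11 of the 26 member windows (42.3%) and in 35.4% of the 32851 mouse windows. The GATA letters AGATAA stood in 2 member windows (7.69%, beside 11.2% of all) and the SOX letters ACAAAG in 5 (19.2%, beside 18.7% of all). The letters were searched as written, and a match describes the sequence only.

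The angiopoietin and TIE genes all had fold changes below 0, with 95% intervals that took in 0. *Tek* (TIE2, the receptor for angiopoietins) was at 82.8, 68.5 and 62.3 FPKM in control and at 66.2, 55.0 and 65.3 FPKM in depleted lungs, with a limma log2 fold change of −0.19 (SE 0.12, 95% interval −0.48 to 0.11). The groups overlapped, and the value was −0.08 without control replicate 1, −0.10 without depleted replicate 2 and −0.28 without control replicate 3. *Tie1*, its co-receptor, had a log2 fold change of −0.05 (95% interval −0.35 to 0.24) at 44.4 to 61.0 FPKM over the 6 libraries. *Angpt2* (angiopoietin 2, released by activated ECs and able to block TIE2) was low, with 5.50 to 8.90 FPKM in control and 3.11 to 5.93 FPKM in depleted lungs. Its log2 fold change of −0.51 had an interval of −1.04 to 0.03 and an adjusted p of 0.467 by limma. It was −0.33 without control replicate 1, −0.31 without depleted replicate 2 and −0.68 without depleted replicate 1.

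The receptors for BMP and TGF-β ligands all lay within 0.1 of a log2 fold change of 0. *Acvrl1* (ALK1, the endothelial receptor for BMP9 and BMP10) was at 125, 98.6 and 103 FPKM in control and at 121, 98.7 and 117 FPKM in depleted lungs, with a limma log2 fold change of 0.05 (SE 0.12). *Eng* (endoglin, its co-receptor) had 0.00 (95% interval −0.30 to 0.31) at 76.0 to 101 FPKM. *Bmpr2*, the type II receptor mutated in heritable pulmonary arterial hypertension, had 0.06 (95% interval −0.26 to 0.38) at 28.8 to 39.9 FPKM. Summed over the 3 genes, the level was 231 ± 30.6 FPKM in control and 236 ± 21.4 FPKM in depleted lungs (SD, n = 3).

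Of the transcription factors, *Gata2* stood apart from the other 4. *Gata2*, which acts in ECs and also in mast cells and blood progenitors (chr6:88193891-88207032), was at 12.4, 10.2 and 11.1 FPKM in control and at 18.1, 13.2 and 21.7 FPKM in depleted lungs. All 3 depleted libraries were above the controls, with depleted replicate 2 close to the highest control. The limma log2 fold change was 0.59 (SE 0.17, 95% interval 0.19 to 0.99, adjusted p = 0.277). It was 0.43 without depleted replicate 3 and 0.77 without depleted replicate 2. Mast cell markers were measured beside it: 3 of 8 were above the filter, none was called, and their summed level was 20.1 to 28.4 FPKM in control and 18.0 to 23.0 FPKM in depleted lungs. *Sox18*, a SOX factor of blood and lymphatic vessel growth and the most abundant of this role, was at 71.1, 53.7 and 46.8 FPKM in control and at 69.0, 48.3 and 55.7 FPKM in depleted lungs (log2 fold change 0.02). The groups overlapped over their whole range. *Sox7* and *Sox17*, factors of the same subgroup, had log2 fold changes of 0.05 and −0.12, and *Erg*, the ETS factor that maintains EC identity, had −0.05. Each of these 4 intervals took in 0.

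Genes of vascular tone and coagulation included 2 members whose groups did not overlap. *Thbd* (thrombomodulin, which turns thrombin from clotting to protein C activation, chr2:148404466-148408188) was at 207, 180 and 167 FPKM in control and at 243, 241 and 296 FPKM in depleted lungs. Every depleted library was above every control. The limma log2 fold change was 0.49 (SE 0.12, 95% interval 0.22 to 0.76, adjusted p = 0.214) and lay between 0.39 and 0.57 when single libraries were left out. *Ramp2*, which joins *Calcrl* to form the adrenomedullin receptor of vessels, was at 56.4, 58.2 and 52.9 FPKM in control and at 61.3, 61.4 and 73.3 FPKM in depleted lungs. Its log2 fold change of 0.22 (SE 0.09, adjusted p = 0.433 by limma) was 0.13 without depleted replicate 3 and 0.26 without depleted replicate 1. *Ramp2* shares 33.4% of its annotated exon bases with *Vps25* on the same strand, so reads there may come from either gene. How such reads were counted was not given. *Calcrl*, the partner in that receptor, had a log2 fold change of −0.04 (95% interval −0.32 to 0.24) at 160 to 213 FPKM. *Nos3*, the endothelial nitric oxide synthase, had 0.15 (95% interval −0.14 to 0.43) at 6.52 to 9.28 FPKM, and 25.2% of its exon bases lie opposite an antisense gene. *Egfl7*, a secreted protein of vessel walls, had −0.13 (95% interval −0.48 to 0.21).

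The capillary genes held both the member with the lowest adjusted p and the member with the most negative fold change. *Prx* (periaxin, a scaffold protein of Schwann cells that is also expressed in lung capillary ECs, chr7:27499324-27520214) was at 40.1, 33.8 and 31.6 FPKM in control and at 46.7, 53.4 and 53.8 FPKM in depleted lungs. Every depleted library was above every control. The limma log2 fold change was 0.53 (SE 0.11, 95% interval 0.28 to 0.79, adjusted p = 0.166) and lay between 0.46 and 0.63 when single libraries were left out. *Aplnr* (the apelin receptor, chr2:85136225-85139923) was at 41.9, 24.4 and 23.1 FPKM in control and at 18.8, 15.8 and 16.7 FPKM in depleted lungs. Every depleted library was below every control, and control replicate 1 was far above the other controls. Its log2 fold change was −0.72 (SE 0.21, 95% interval −1.22 to −0.21, adjusted p = 0.287 by limma). It was −0.45 without control replicate 1 and −0.87 without control replicate 3. *Apln*, its ligand, had −0.30 (95% interval −0.81 to 0.21) at 10.4 to 22.4 FPKM, and the groups overlapped. Its value was −0.09 without control replicate 1, −0.14 without depleted replicate 2 and −0.45 without control replicate 3.

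The other capillary genes overlapped between the groups. *Plvap*, which forms the diaphragms of endothelial caveolae and was the most abundant member, was at 269, 249 and 194 FPKM in control and at 231, 175 and 233 FPKM in depleted lungs (limma log2 fold change −0.15, SE 0.16). The value was −0.02 without depleted replicate 2, −0.06 without control replicate 1 and −0.29 without control replicate 3. *Tmem100*, an endothelial membrane protein downstream of ALK1, had 0.05 (95% interval −0.28 to 0.37) at 182 to 249 FPKM. *Gpihbp1*, which carries lipoprotein lipase to the capillary surface, had 0.21 (95% interval −0.11 to 0.53) at 34.7 to 52.1 FPKM, and 0.08 without depleted replicate 3 or 0.34 without depleted replicate 2. Of the aerocyte genes, *Car4* had the narrowest interval of all members tested, −0.23 to 0.14 about a log2 fold change of −0.04, at 54.5 to 63.9 FPKM. *Ednrb* had the widest, −0.46 to 1.02 about 0.28. Its highest value, 14.3 FPKM, was in depleted replicate 3, and without that library the log2 fold change was −0.04, while it reached 0.52 without control replicate 1. As a group, 4 capillary genes were above and 4 below 0, and their summed level was 630 ± 84.5 FPKM in control and 620 ± 82.5 FPKM in depleted lungs (SD, n = 3).

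The venous genes did not differ beyond their spread. *Vwf* (von Willebrand factor, the clotting protein stored in ECs of larger vessels and in platelets) was at 39.7, 44.4 and 34.7 FPKM in control and at 47.0, 38.8 and 36.0 FPKM in depleted lungs, with a limma log2 fold change of 0.03 (SE 0.13, 95% interval −0.27 to 0.33). *Emcn*, a sialomucin of veins and capillaries, had −0.09 (95% interval −0.41 to 0.22) at 7.14 to 9.94 FPKM. Platelet markers, measured beside *Vwf*, summed to 20.0 to 25.2 FPKM in control and 17.9 to 28.8 FPKM in depleted lungs.

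The lymphatic genes were not alike. *Lyve1* (a hyaluronan receptor of lymphatic ECs that is also found on some tissue macrophages, chr7:110850607-110863239) was at 83.0, 89.4 and 80.2 FPKM in control and at 119, 118 and 162 FPKM in depleted lungs. Every depleted library was above every control, and depleted replicate 3 was the highest. The limma log2 fold change was 0.64 (SE 0.13, 95% interval 0.33 to 0.95, adjusted p = 0.175). It was 0.49 without depleted replicate 3 and 0.72 without depleted replicate 2. *Flt4* (VEGFR3, chr11:49609263-49652739) lay between 5.50 and 7.59 FPKM in control and between 5.91 and 7.51 FPKM in depleted lungs, with a log2 fold change of 0.01 (95% interval −0.31 to 0.33). *Prox1*, the master regulator of lymphatic identity, was below the filter, at 0.552, 0.356 and 0.581 FPKM in control and 0.477, 0.591 and 0.480 FPKM in depleted lungs. With no filter its log2 fold change was 0.02 (SE 0.10). Macrophage and dendritic markers summed to 717 to 861 FPKM in control and 812 to 842 FPKM in depleted lungs, with none of 14 called, and their part in the level of *Lyve1* was not tested. In whole lung, a change in the number of cells of a type and a change in RNA per cell cannot be told apart, for *Lyve1* as for every gene here.

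**Figure D2:**
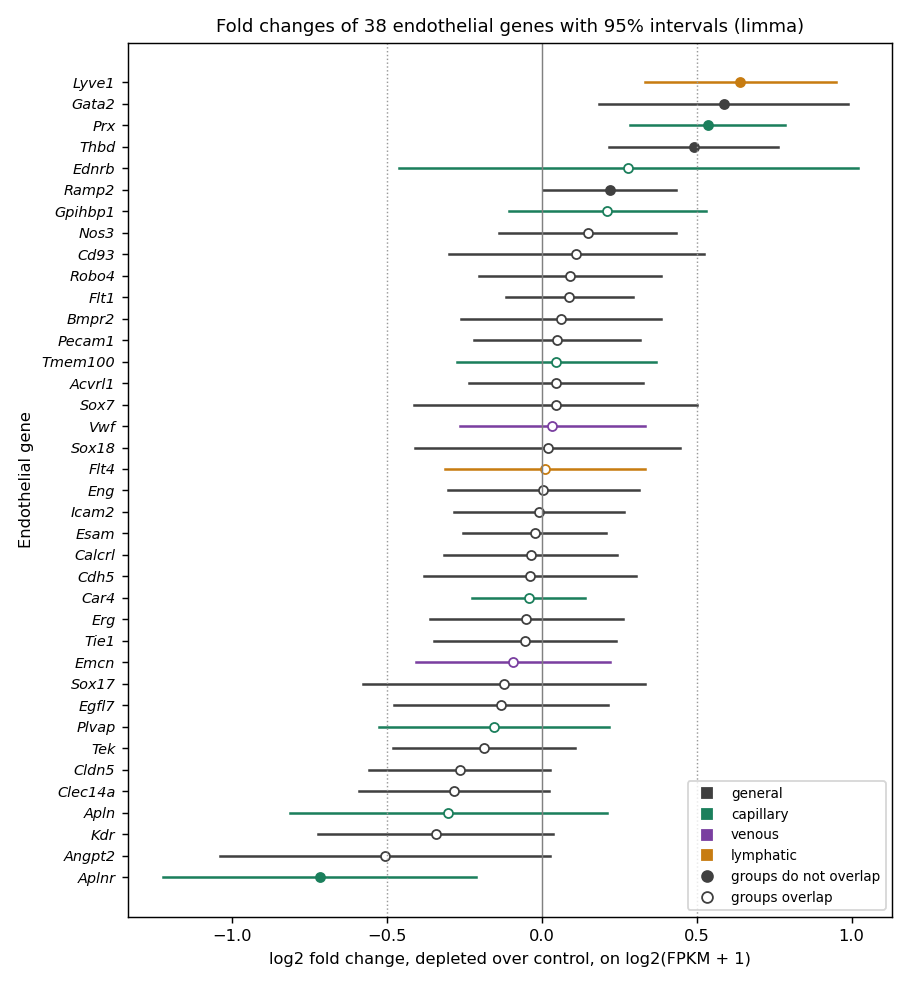
Log2 fold change of the 38 tested endothelial genes (points, depleted over control, on log2(FPKM + 1)) with 95% intervals from limma (lines), coloured by vessel type and sorted by value. Filled points mark the 6 genes whose groups do not overlap, and dotted lines stand at 0.5 on either side of 0. The values run from −0.72 for *Aplnr* to 0.64 for *Lyve1*, and the intervals of 32 genes take in 0.

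In the summed level of the endothelial genes, the libraries of 1 group differed from each other by more than the group means did. Summed over the 39 members, the level was 2959, 2534 and 2278 FPKM in control and 2705, 2366 and 2861 FPKM in depleted lungs. The means, 2591 ± 344 and 2644 ± 253 FPKM (SD, n = 3), differed by less than either SD. Control replicate 1 was the highest of the 6 libraries for 19 members (48.7% of the 39), beside 23.7% of all genes tested, and the highest control for 31. Control replicate 3 was the lowest of the 6 for 21 members and the lowest control for 31. Among the depleted libraries, replicate 2 was the lowest for 29 members, and replicate 3 was the highest of all 6 for 13. For these counts of control replicate 3 and of depleted replicates 2 and 3, the share of all genes was not taken. Other endothelial lists did not all keep this order. A list of 22 further capillary genes summed to 1559, 1245 and 1258 FPKM in control and 1496, 1273 and 1592 FPKM in depleted lungs. For 20 further venous and lymphatic genes the sums were 322, 332 and 333 FPKM in control and 311, 329 and 354 FPKM in depleted lungs. The order did hold in a list of 29 further pan-endothelial genes. They summed to 1314, 1138 and 1066 FPKM in control and 1240, 1134 and 1242 FPKM in depleted lungs. Dividing the FPKM by the geometric mean of the 28 of these genes that passed the filter, an adjustment chosen after the values were seen, used factors of 1.14, 0.977 and 0.896 in control and 1.00, 0.988 and 1.01 in depleted libraries. These average about the same in both groups, so the division could hardly move a fold change between the groups and served only to weigh the spread between libraries. No member was called. For *Ramp2* the SE went from 0.09 to 0.14 and the unadjusted limma p from 0.0465 to 0.144. Some members moved the other way. For *Aplnr* the SE went from 0.21 to 0.16 and the unadjusted limma p from 0.0121 to 0.0014. The unadjusted limma p went from 0.0688 to 0.0360 for *Kdr* and from 0.0599 to 0.0284 for *Angpt2*. After the division, the adjusted limma p was 0.197 for *Aplnr*, 0.603 for *Kdr* and 0.565 for *Angpt2*.

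**Figure D3:**
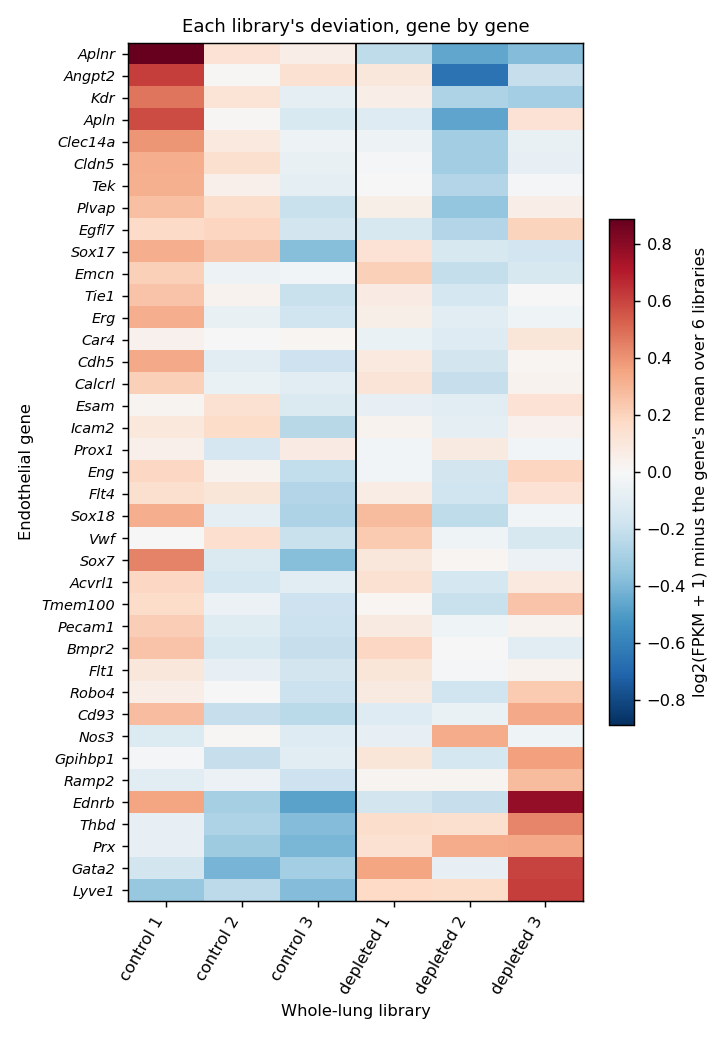
Deviation of each whole-lung library from the mean of its gene over 6 libraries, on log2(FPKM + 1), for the 39 endothelial genes (rows, sorted by fold change) in control and depleted libraries (columns, split by the black line). Red is above and blue below the mean. The column of control replicate 1 is red for most genes and that of control replicate 3 blue, while the rows of *Lyve1*, *Prx* and *Thbd* near the bottom are blue in the controls and red in the depleted libraries.

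Related endothelial gene lists were measured in the same fit, and none of their genes was called. Of 22 further capillary genes, 12 were above and 10 below 0, with a median log2 fold change of 0.01 and the most abundant, *Epas1*, at 427 FPKM in control and 473 FPKM in depleted lungs on average. *Hpgd*, the next, was at 260 FPKM in control and 286 FPKM in depleted lungs. Of 28 tested pan-endothelial genes, 19 were above and 9 below 0 (median 0.05), and *Aqp1* and *Adgrf5*, the most abundant, had log2 fold changes of 0.04 and 0.08. Of 16 further venous and lymphatic genes, 8 were above and 8 below 0 with a median near 0. The most abundant, *Pdpn*, a mucin-type protein of lymphatic ECs and alveolar type I cells, was at 80.2 to 85.7 FPKM in control and 77.5 to 90.3 FPKM in depleted lungs (log2 fold change 0.01), and the next, the lymphatic chemokine *Ccl21a*, at 76.3 to 79.6 and 60.2 to 71.2 FPKM (log2 fold change −0.24, adjusted p = 0.353 by limma). Of 17 Notch and arterial genes, 8 were above and 9 below 0 (median −0.15). The most abundant, *Mgp*, an inhibitor of calcification, was at 458 to 572 FPKM in control and 386 to 522 FPKM in depleted lungs (log2 fold change −0.23, 95% interval −0.54 to 0.09). The next, *Cxcr4*, the receptor for CXCL12, was at 52.4, 44.0 and 39.4 FPKM in control and at 32.7, 29.7 and 31.4 FPKM in depleted lungs (limma log2 fold change −0.51, adjusted p = 0.181). The 15 tip cell genes, which mark sprouting ECs and include *Apln* and *Angpt2*, had 12 values below 0 and a median of −0.28, beside −0.04 over all genes tested, with 5 of the 15 lower in every depleted library, beside 11.8% of all genes tested. Their most abundant genes, the basement membrane collagens *Col4a2* and *Col4a1*, had log2 fold changes of −0.13 and −0.00. *Cxcr4* is also expressed by neutrophils and lymphocytes.

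Ligands, flow-responsive, inflammatory and proliferation genes were likewise without a call. Of 17 tested angiogenic ligands, 6 were above and 11 below 0 (median −0.12), and after *Vegfa* the most abundant, *Fgf1*, had a log2 fold change of 0.02. The 16 flow-responsive genes, which include *Thbd* and *Nos3*, had 5 with every depleted library above the controls and 3 with every depleted library below, beside 5.59% and 11.8% of all genes tested. The most abundant was *Txnip*, a redox protein, at 205, 207 and 183 FPKM in control and at 298, 331 and 249 FPKM in depleted lungs (limma log2 fold change 0.55, adjusted p = 0.181). Of 12 tested genes of inflamed endothelium, 6 were above and 6 below 0, and the adhesion molecule *Icam1* was at 128 to 130 FPKM in control and 114 to 125 FPKM in depleted lungs, with *Bst2*, the next, at 83.4 to 101 and 71.3 to 90.6 FPKM. The 15 proliferation genes were all below 0, with a median of −0.12, and none had an unadjusted p below 0.05. *Pcna*, the most abundant of these, was at 25.2 to 29.8 FPKM in control and 25.4 to 28.6 FPKM in depleted lungs, and *Ccnb2*, the next, at 4.05 to 6.75 and 3.06 to 5.14 FPKM.

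Markers of other lung cells were given the same test, and apart from *Aqp5* none was called. The 14 lymphocyte markers were all below 0 (median −0.33, beside −0.04 over all genes tested), with 7 lower in every depleted library, beside 11.8% of all genes tested, and summed levels of 234 to 275 FPKM in control and 150 to 219 FPKM in depleted lungs. Fibroblast markers had 11 of 12 values below 0 (median −0.16), and smooth muscle and pericyte markers 8 of 13 (median −0.04). Summed markers of alveolar epithelium were 19753 to 22724 FPKM in control and 21564 to 23313 FPKM in depleted lungs. Erythroid markers summed to 1165 to 1678 and 643 to 1457 FPKM, mesothelium markers to 71.3 to 103 and 75.6 to 89.0 FPKM, adipocyte markers to 98.7 to 190 and 103 to 180 FPKM, and cardiac muscle markers to 175 to 276 and 195 to 245 FPKM, in control and depleted lungs respectively. Their part in the endothelial values was not tested.

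Neutrophils express few of the endothelial genes. In the 9 libraries of neutrophils sorted as CD45+CD11b+Ly6G+ cells, 28 of the 39 members had a mean under 1 FPKM in lung, PB and BM alike, and *Sox17* was listed at 0 in all 9. At least 1 FPKM was reached by 7 members in lung neutrophils, 8 in PB neutrophils and 11 in BM neutrophils. These libraries stand in a separate table, so their levels are set beside those of whole lung without a test.

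The highest levels differed by tissue. *Acvrl1* was at 86.9 to 91.2 FPKM in BM neutrophils, 2.83 to 3.90 FPKM in PB and 4.80 to 5.41 FPKM in lung. *Erg* was at 19.8 to 22.5 FPKM in BM neutrophils and at or under 0.478 FPKM in the other libraries. *Cd93* was highest in lung neutrophils, at 24.6 to 26.9 FPKM, and *Thbd* in PB neutrophils, at 16.7 to 17.3 FPKM. *Calcrl* reached 8.30 to 8.85 FPKM in BM neutrophils, and *Lyve1* 3.51 to 3.88 FPKM. Of the 6 members whose whole-lung groups did not overlap, *Prx*, *Gata2* and *Ramp2* were under 1 FPKM in neutrophils of every tissue, and *Thbd* was at 4.43 to 5.14 FPKM in lung neutrophils beside 167 to 207 FPKM in control whole lung. *Aplnr* was at 1.84 to 2.32 FPKM in BM neutrophils and at or under 0.111 FPKM in those of PB and lung.

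**Figure D4:**
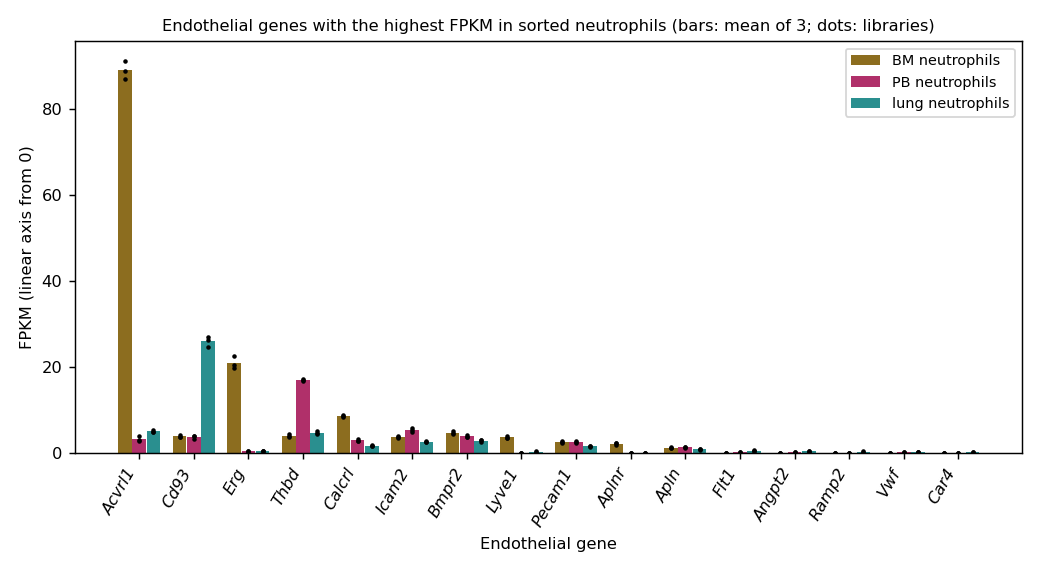
FPKM (linear axis from 0) of the 16 endothelial genes with the highest levels in sorted neutrophils, in BM, PB and lung (bars, mean of 3 libraries; dots, single libraries). *Acvrl1* and *Erg* stand out in BM, *Cd93* in lung and *Thbd* in PB, and the bars of most other genes are near 0.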

How the data were processed

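Whole lungs were measured by bulk RNA-Seq of polyA RNA, in 3 isotype control and 3 neutrophil-depleted libraries. The authors trimmed reads with fastp, aligned them to mm10 with HISAT2, counted with HTSeq and deposited FPKM per gene, in tool versions not given in the sources used here. The methods name a VAHTS kit, the labels a SMARTER kit, and how strand was counted was not given. The whole-lung table holds FPKM and no counts, so the depth in reads was not derived, and 26 symbols had been turned into dates by a spreadsheet. The authors' tables for *Piezo1*-cKO neutrophils, with their fold changes and p values, were not used.

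Groups were taken from the labels. The 6 libraries were fitted by limma 3.58.1 (R 4.3.3; moderated variances with a mean trend and the robust option). Values entered as log2(FPKM + 1), a scale that understates changes of low genes, for 13990 genes with at least 1 FPKM in at least 3 libraries. The study tested counts. FPKM needed a test on the log scale, so the number of calls here cannot be set against that of the study. Genes were called at a Benjamini-Hochberg adjusted p under 0.05 with a log2 fold change past 0.5 in either direction. An exact permutation of 3 against 3 libraries cannot reach 0.05, so no such test was run. Sorted neutrophil levels were described only. The fit was first tested on simulated data. Genes varied independently there, so shifts shared by a whole library were not covered.

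All members are named. The value in every library is given for those whose groups do not overlap and for the most abundant of each role, each other endothelial list is represented by its 2 most abundant genes, since none was called, and the lists of other cell types by their counts, medians or sums. *S100a8* and *S100a9* check the depletion, and *Ly6g* was too low to do so. Members, roles and lists were chosen with earlier results of these data known. Positions are from GENCODE M21 (GRCm38), matched by identifier for 39 of 39 members, and promoter sequences from RefSeq (GRCm38.p6). Figures were drawn with Python 3.11.15 and matplotlib 3.10.9.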

Additional observations from a re-analysis of the deposited data

How the results depend on the processing

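No endothelial gene was called under any of the 14 alternative fits, and the lowest adjusted p that any of them gave a member was 0.119 by limma (*Prx*, with array weights). Of 533 fold changes of single members under these alternatives, 530 kept their sign or stayed within their standard error and 3 reversed, each when 1 library was left out: *Cdh5* to 0.12 and *Erg* to 0.10 without control replicate 1, and *Flt4* to −0.12 without control replicate 3. Over all single libraries left out, these ranged from −0.14 to 0.12 for *Cdh5*, from −0.15 to 0.10 for *Erg* and from −0.12 to 0.10 for *Flt4*. The median log2 fold change of the members ranged from −0.10 to 0.10 when single libraries were left out. The count over all genes was less stable. In place of 1 gene, 4 genes were called with a pseudocount of 0.1, 0 with no filter, 2 on TPM, 4 with array weights, 5 with a replicate block, and 10 with FPKM divided by the level of other pan-endothelial genes, which was chosen after seeing the data. It ranged from 0 to 12 when single libraries were left out. Without control replicates 1, 2 and 3 it was 4, 6 and 0. Without depleted replicates 1, 2 and 3 it was 12, 1 and 0. The 1 gene called without depleted replicate 2 was higher in depleted lungs, so *Aqp5* was not called there. Nor was *Aqp5* called with no filter, without control replicate 3 or without depleted replicate 3, where 0 genes were called. The cause was not tested. Libraries with the same number were not paired by the labels, and their deviations correlated at 0.059, 0.044 and −0.027, so the block rests on a shared number only.

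With 3 libraries per group and no counts, a difference such as that of *Lyve1* or *Prx* cannot be set against counting error, and the intervals allow changes of up to 1.72-fold for *Prx* and 1.93-fold for *Lyve1*, on the log2(FPKM + 1) scale.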
